A study of Mus musculus with 4 samples.

Results

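The genes Cx3cr1, Apol7c, Klrb1b and Treml4 were followed through the cells of subcutaneous tumors of LLC, a murine line of Lewis lung carcinoma, 72 h after hypofractionated radiotherapy. They were chosen by their fall in macrophages of every irradiated library, so the size of that fall is a description and was not tested. They are 4 of the 18605 genes listed in all 4 libraries, and 4 of the 10203 with a mean of at least 2 CPM in macrophages, where CPM is the UMIs (counted RNA molecules) of a gene for every 1e6 UMIs of those cells. All 4 passed that filter on low values. Apol7c and Treml4 did so only through the control library, since their mean over the irradiated libraries was 1.63 CPM each, so they had to differ.

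The tumors grew in C57/BL6N mice of 6 to 8 weeks, female by the study's methods, and the labels give no transgene or deletion. The control (NT) was mock treated and was 1 library made from 3 pooled tumors. The radiotherapy group (RT) had 3 libraries, called RT1 to RT3, with 1 tumor in each. Each RT tumor received 3 doses of 8 Gy (24 Gy in all), the first on day 7 and the last on day 9 after the cells were injected. Mean tumor volume at the start was 100 mm3. NT and RT libraries came from different mice, and with 1 NT library no spread between control tumors could be had, so no p-value was computed between NT and RT. Values of the RT libraries are given in the order of their numbers. Intervals are exact 95% intervals that cover counting error only.

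NT had 10141 barcodes and 69667759 UMIs. RT1 had 15346 barcodes and 78585759 UMIs, RT2 14994 and 108699844, and RT3 15324 and 85660188. RT2 stood apart in its format, with 18605 genes in place of 32285 and no barcode above 11.95% mitochondrial UMIs. Between 182 and 277 barcode sequences were shared by any pair of libraries, and 1337 sequences occurred in more than 1 library. Clusters that took the name macrophage from their markers held 7346 cells, 708 of them in NT, 2585 in RT1, 2577 in RT2 and 1476 in RT3. Their median depth was 2838.5 UMIs per cell in NT and 2535, 4111 and 2188 UMIs in the RT libraries. All 8 macrophage markers were measured in them, and their summed level was 9056 CPM in NT and 14476, 16249 and 13418 CPM in the RT libraries. C1qb, a subunit of the complement component C1q and the most abundant of these markers, stood at 1861 CPM in NT and at 3910, 4952 and 3742 CPM in the RT libraries. The clusters therefore carried macrophage markers in every library. UMIs of each of the 4 genes were still counted in macrophages of every RT library.

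The 4 genes belong to separate families of the myeloid surface and endosome. Cx3cr1 (ENSMUSG00000052336) encodes the receptor for fractalkine (Cx3cl1), a chemokine that is also held on cell membranes, and is known for its high level in patrolling monocytes, microglia and many tissue macrophages. Klrb1b (ENSMUSG00000079298) encodes an inhibitory lectin-like receptor of the NKR-P1 family, which binds the Clr-b protein encoded by Clec2d and is best known on natural killer cells. Treml4 (ENSMUSG00000051682) encodes a receptor-like member of the TREM family found on macrophages and some dendritic cells. It binds dying cells and has been tied to signaling by endosomal Toll-like receptors. Apol7c (ENSMUSG00000044309) belongs to the apolipoprotein L family and is known in dendritic cells, where the protein acts at the membranes of endosomes.

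The 250 bases before each annotated start are shown because all 4 genes were low in macrophages of RT, and motifs of myeloid factors were looked for in them. The sequences are from RefSeq on the build GRCm38.p6 and all 4 symbols matched. Cx3cr1 lies at chr9:120068297-120068546 on the minus strand, Klrb1b at chr6:128826316-128826565 on the minus strand, Treml4 at chr17:48264045-48264294 on the plus strand and Apol7c at chr15:77533316-77533565 on the minus strand. Each is written 5′ to 3′ along its gene, and capitals mark matches to the motifs searched.
Cx3cr1: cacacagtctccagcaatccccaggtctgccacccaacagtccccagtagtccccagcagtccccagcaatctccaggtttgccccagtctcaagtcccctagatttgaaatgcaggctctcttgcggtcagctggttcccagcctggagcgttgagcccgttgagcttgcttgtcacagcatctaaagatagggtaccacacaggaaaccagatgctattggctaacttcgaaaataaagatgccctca
Klrb1b: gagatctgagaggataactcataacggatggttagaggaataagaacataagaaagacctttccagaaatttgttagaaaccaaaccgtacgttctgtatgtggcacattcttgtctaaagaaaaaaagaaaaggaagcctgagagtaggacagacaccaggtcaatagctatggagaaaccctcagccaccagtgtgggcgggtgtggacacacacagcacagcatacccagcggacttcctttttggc
Treml4: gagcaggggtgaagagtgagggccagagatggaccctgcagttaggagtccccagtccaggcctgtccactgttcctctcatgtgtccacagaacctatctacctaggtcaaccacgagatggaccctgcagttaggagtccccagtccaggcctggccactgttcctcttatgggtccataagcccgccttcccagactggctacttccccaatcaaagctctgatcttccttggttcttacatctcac
Apol7c: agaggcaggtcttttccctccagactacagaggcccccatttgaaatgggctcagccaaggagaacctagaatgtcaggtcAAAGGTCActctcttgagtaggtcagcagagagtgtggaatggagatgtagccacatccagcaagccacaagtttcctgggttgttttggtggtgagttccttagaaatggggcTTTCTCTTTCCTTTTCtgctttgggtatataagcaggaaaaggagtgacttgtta
Searched on both strands were the PU.1 motif GAGGAAGT, the NR4A motif AAAGGTCA, an interferon response element of 2 GAAA repeats and the C/EBP motif TTGCNNNAA. Matches were found in Apol7c alone among the 4, namely 1 NR4A match from base -169 to -162 and 2 interferon response element matches on the other strand, from -55 to -46 and from -49 to -40, which overlap each other. Of the 27025 promoters in the table, cut to the same length, 1.31% held the NR4A motif, 3.04% the interferon response element, 2.44% the PU.1 motif and 8.28% the C/EBP motif. No motif was shared by 2 of the 4 windows, and a match describes letters only.

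In macrophages Cx3cr1 stood at 83.5 CPM in NT (206 UMIs, interval 72.4 to 95.7). It stood at 3.79 CPM in RT1 (31 UMIs), 4.15 CPM in RT2 (52 UMIs) and 2.20 CPM in RT3 (9 UMIs). The NT interval lay far above the highest RT bound, 5.45 CPM, and the 3 RT intervals overlapped. The log2 ratio of RT over NT was -4.46 in RT1 (interval -5.05 to -3.91), -4.33 in RT2 (-4.80 to -3.88) and -5.24 in RT3 (-6.39 to -4.29), with a mean of -4.68 ± 0.49 (SD, n = 3 RT libraries). A Cx3cr1 UMI was found in 90 of 708 NT macrophages, 12.7% (10.3 to 15.4), and in 0.890%, 0.854% and 0.610% of those in the RT libraries.

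Klrb1b stood at 36.9 CPM in NT macrophages (91 UMIs, interval 29.7 to 45.3), against 1.71 CPM in RT1 (14 UMIs), 4.87 CPM in RT2 (61 UMIs) and 6.61 CPM in RT3 (27 UMIs). RT1 was the lowest library, and its interval (0.937 to 2.88) did not reach those of RT2 and RT3, which overlapped. The log2 ratios were -4.43, -2.92 and -2.48, with a mean of -3.28 ± 1.02 (SD, n = 3), the largest SD of the 4 genes. The separation of RT1 depended on the clustering, since RT1 macrophages held 32 Klrb1b UMIs at resolution 0.5 and 31 at resolution 1.2 in place of 14, and the SD was then 0.66 and 0.63, below that of Apol7c (0.81 and 0.97). The share of macrophages with a Klrb1b UMI was 7.49% in NT and 0.542%, 1.67% and 1.36% in the RT libraries.

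Treml4 was the least abundant of the 4 in NT, with 16.6 CPM (41 UMIs, interval 11.9 to 22.5). RT1 held 1.10 CPM (9 UMIs), RT2 2.32 CPM (29 UMIs) and RT3 1.47 CPM (6 UMIs). The RT intervals overlapped and all lay below that of NT, and the mean log2 ratio was -3.42 ± 0.54 (SD, n = 3). Its UMIs came mostly as 1 per cell, in 33 NT macrophages with at most 2 in any of them.

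Apol7c stood at 33.2 CPM in NT (82 UMIs, interval 26.4 to 41.2), 0.857 CPM in RT1 (7 UMIs), 2.56 CPM in RT2 (32 UMIs) and 1.47 CPM in RT3 (6 UMIs). Its mean log2 ratio was -4.49 ± 0.79 (SD, n = 3), again with every RT interval below that of NT. The Apol7c UMIs sat in few cells. In NT, 22 macrophages held all 82 and the 5 highest held 63.4% of them, with 17 UMIs in a single cell. In RT2 only 8 macrophages held 32 UMIs and 1 of them held 15. The UMIs per macrophage with any were 3.73 in NT and 1.17, 4 and 1.5 in the RT libraries, on 6, 8 and 4 such cells. The share of macrophages with any was 3.11% in NT and 0.232%, 0.310% and 0.271% in the RT libraries.

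**Figure D1:**
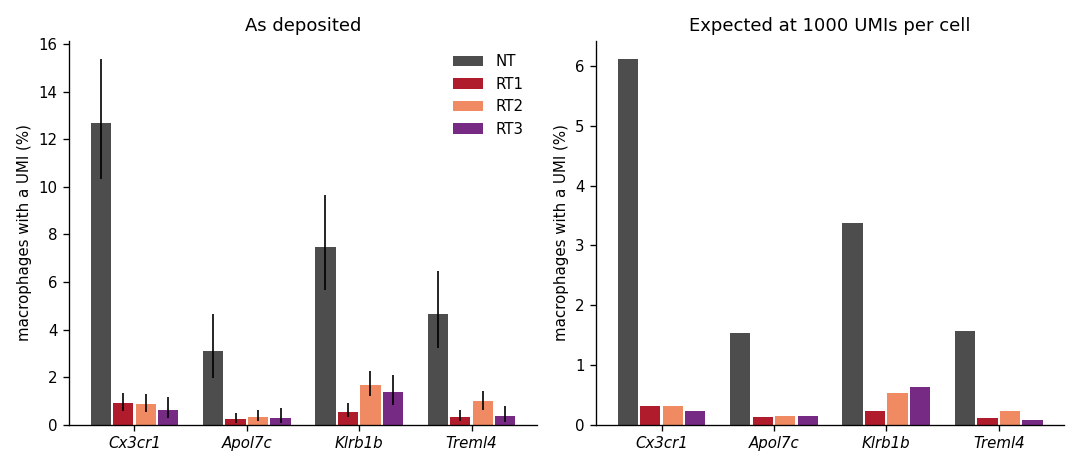
Share of macrophages with a UMI of each gene (vertical axes, %), as deposited with exact 95% intervals (left) and computed for 1000 UMIs per cell (right), in NT and the 3 RT libraries. The NT bars, from 3.11% to 12.7% on the left, stand above every RT bar, the highest of which is 1.67%.

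RT2 macrophages were deeper than those of NT, and RT1 and RT3 macrophages shallower. When each macrophage was brought to 1000 UMIs, which left out 117 shallower cells in NT, 466 in RT1, 378 in RT2 and 323 in RT3, the expected share with a Cx3cr1 UMI was 6.12% in NT and 0.302%, 0.306% and 0.232% in the RT libraries. For Klrb1b it was 3.37% in NT and between 0.234% and 0.624% in RT, for Treml4 1.57% against 0.0765% to 0.225%, and for Apol7c 1.54% against 0.128% to 0.140%. NT stayed above every RT library for all 4 genes.

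Across all 10203 genes tested in macrophages, 289 (2.83%) were at least 2-fold lower in every RT library than in NT, and 397 (3.89%) were at least 2-fold higher. The 4 genes are among the 289 by the way they were chosen. By mean log2 ratio Cx3cr1 and Apol7c ranked 1 and 2, and Treml4 and Klrb1b 5 and 6. Between them lay Ocstamp, a membrane protein of osteoclast fusion, with 32 UMIs in NT macrophages and 0.612, 1.44 and 1.22 CPM in the RT libraries, from 5, 18 and 5 UMIs (mean log2 ratio of CPM -3.66). The other gene between them was Ifna2, a type I interferon, at 29.6 CPM in NT and 4.90, 0.719 and 4.16 CPM in RT (mean -3.60). Just below the 4 came Lrr1, a replication-linked gene, at 12.2 CPM in NT and 2.08, 0.958 and 1.71 CPM in RT (mean -3.01). The median over all genes tested was -0.0032, so the genes as a whole were centered near 0. Ocstamp and Lrr1, with RT means of 1.09 and 1.58 CPM, passed the low-value filter only through NT and so had to differ.

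**Figure D2:**
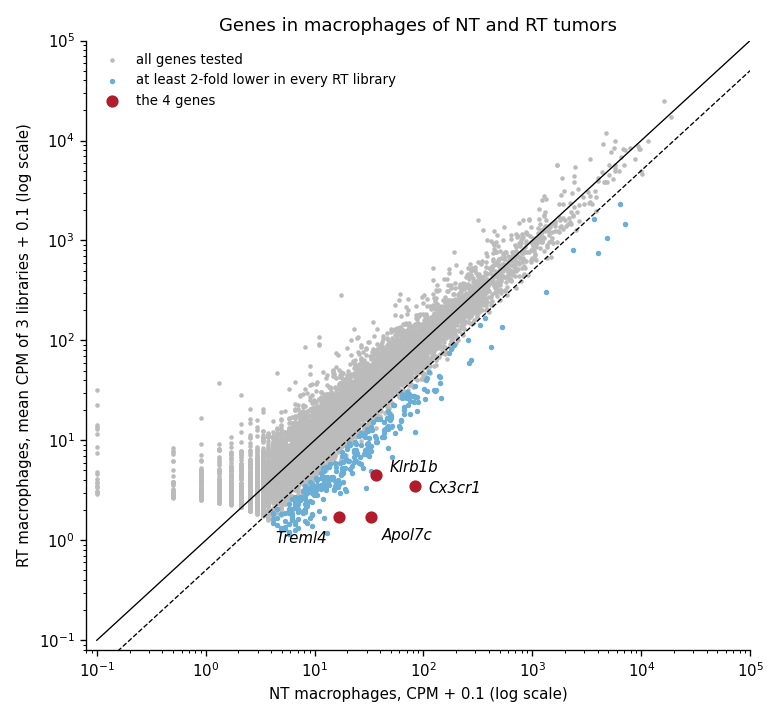
Each point is 1 of the 10203 genes tested in macrophages, with its NT level (horizontal axis) against its mean RT level over 3 libraries (vertical axis), both in CPM plus 0.1 on log scales. The solid line marks equal levels and the dashed line a 2-fold lower level in RT. The 4 genes, in red, lie at the outer edge of the 289 genes in blue.

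The rest of the 20 genes with the largest falls past the 2-fold rule are given as values. Tk1, the thymidine kinase of S phase, stood at 83.1 CPM in NT and 11.0, 10.8 and 14.2 CPM in the RT libraries. Pkmyt1, a kinase that restrains Cdk1, stood at 51.9 CPM in NT and 5.51, 7.99 and 6.86 CPM in RT, and Fbxo5, Kif14, Kntc1 and Troap were in the same group of 20. Ifnb1, the beta interferon, stood at 261 CPM in NT and 63.4, 12.6 and 104 CPM in RT. Ighm, Adgre4, Clec4b1, Tnfsf15, Gm609 and 1500002C15Rik completed the 20. Kif14, Kntc1, Gm609, Adgre4 and 1500002C15Rik also passed the filter only through NT, so their direction was set by it. A macrophage sub-cluster led by Plk1, Cdca3 and other mitotic genes held 11.6% of macrophages in NT and 2.13%, 2.37% and 1.90% in the RT libraries. Without it the number of genes at least 2-fold lower in every RT library was 185 in place of 289, and the mean log2 ratios of the 4 genes were -4.72 for Cx3cr1, -4.39 for Apol7c, -3.52 for Treml4 and -3.13 for Klrb1b.

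Cx3cr1 was lower in RT in each macrophage sub-cluster with enough UMIs to compare, and the other 3 genes could be compared in fewer of them. In sub-cluster 1, the largest, which was led by Lyve1 and Ccl8 and held 33.2% of NT macrophages, Cx3cr1 stood at 108 CPM in NT and 5.66, 5.34 and 1.61 CPM in the RT libraries. Its share of all macrophages was 35.9%, 36.8% and 33.2% in the RT libraries, close to NT. Apol7c there stood at 53.4 CPM in NT and 1.48, 3.61 and 1.61 CPM in RT, Klrb1b at 36.2 CPM and 1.72, 5.03 and 6.98 CPM, and Treml4 at 23.8 CPM and 1.48, 2.99 and 2.15 CPM. Sub-cluster 1 thus showed for each gene about the difference seen in all macrophages. Of the 6 sub-clusters, 5 held more than 3 Cx3cr1 UMIs in NT, and in all 5 the gene was at least 2-fold lower in every RT library, with a library at 0 read at a floor of 3 counts. For Klrb1b this held in 3 of 3 such sub-clusters, for Apol7c in 2 of 4 and for Treml4 in 1 of 2. The remaining ones could not be read for a 2-fold difference. Apol7c had 0 UMIs in every RT library in sub-clusters 7 and 12, and Treml4 had 2, 1 and 0 UMIs in sub-cluster 12. The ratios there are bounds set by the floor or rest on few UMIs. Some that passed share this limit, such as Apol7c in sub-cluster 4, with 4 UMIs in NT and 0, 0 and 3 in the RT libraries. Apol7c in sub-cluster 10 had 0 UMIs in the 18 NT cells and 1, 7 and 0 in the RT libraries. Klrb1b in sub-cluster 4, with 1 UMI in NT against 1, 10 and 4 in the RT libraries, was too sparse in NT to compare, and RT2 and RT3 held more UMIs than NT. In the mitotic sub-cluster 12, Apol7c stood at 39.2 CPM in NT (17 UMIs) and had 0 UMIs in the 55, 61 and 28 cells of the RT libraries.

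**Figure D3:**
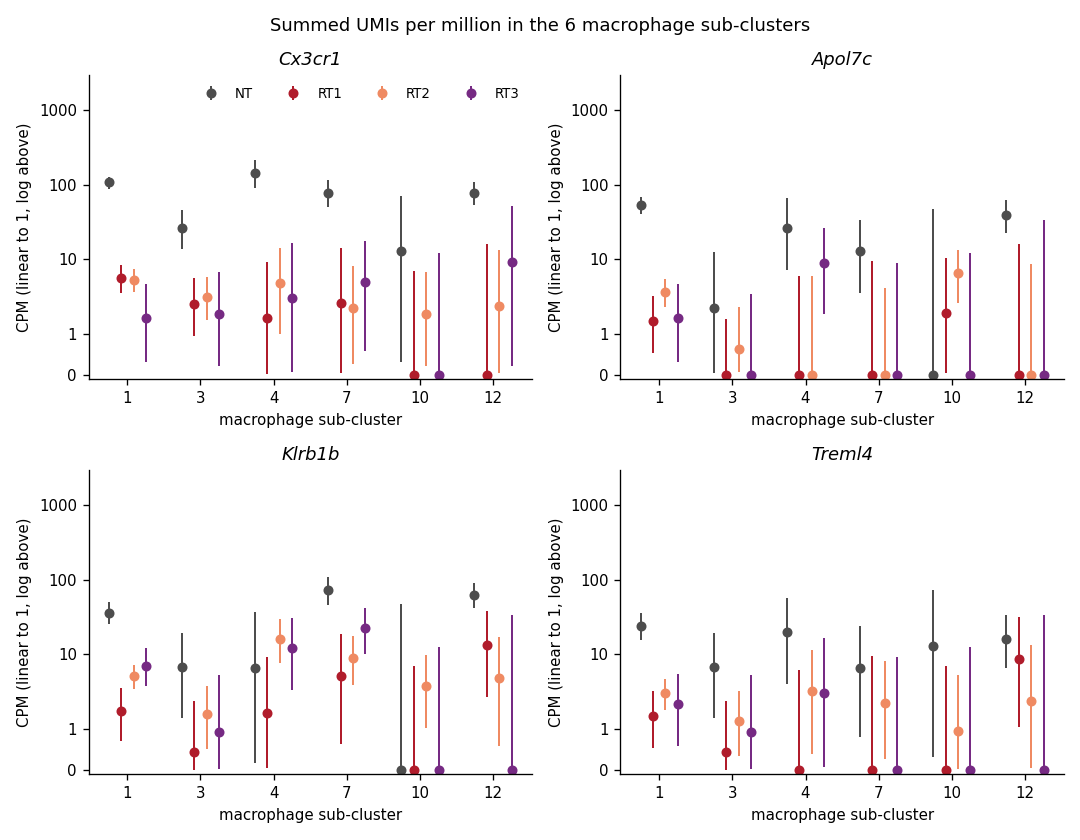
CPM of each gene in the 6 macrophage sub-clusters (horizontal axis) by library, with exact 95% counting intervals. The vertical axis is linear up to 1 CPM and logarithmic above. NT points for Cx3cr1 lie above every RT point in all 6 sub-clusters, and sub-cluster 10 rests on 18 NT cells.

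Outside macrophages the 4 genes parted. Cx3cr1 in monocytes stood at 52.8 CPM in NT (42 UMIs) and 7.06, 6.10 and 9.27 CPM in the RT libraries (20, 30 and 23 UMIs), a mean log2 ratio of -2.84 ± 0.31 (SD, n = 3). The percentage of genes tested in monocytes that were at least 2-fold lower in every RT library was 1.81%. Lymphocytes held 22.8 CPM of Cx3cr1 in NT and 16.6, 39.2 and 10.3 CPM in RT, with RT2 above NT and the others below it. Tumor cells held 5.87 CPM in NT (342 UMIs) and 1.12, 3.34 and 3.19 CPM in RT (58, 228 and 210 UMIs). The Cx3cr1 level of tumor cells was 7.03% of that of macrophages in NT, whereas for the macrophage genes C1qb and Lyz2 the same percentage was 0.174% and 0.214%. In the RT libraries it was 29.5%, 80.5% and 145%, so macrophages of RT2 and RT3 carried Cx3cr1 at about the level of tumor cells. By share of cells, 1.92% of NT tumor cells and 0.536%, 1.38% and 1.18% of those in RT had a Cx3cr1 UMI. Tumor cells lay above macrophages in this share in RT2 and RT3, and below them in NT and in RT1, where macrophages had 0.890%. Tumor cells were deeper, with medians of 8414 UMIs in RT2 and 6251 in RT3. The Cx3cr1 UMIs were not spread evenly in RT2, where 1 macrophage held 12 of the 52 and sub-cluster 1, with 36.8% of the macrophages, held 65.4% of them. In RT3 no macrophage held more than 1 of the 9. The source of these UMIs was not tested, and for RT2 and RT3 they are given as counts, with no level of expression by macrophages read from them. Fibroblasts held 2.16 CPM in NT and 0.752, 2.08 and 0.643 CPM in RT. No Cx3cr1 UMI was found in 314 endothelial cells, which allows a share of cells with a UMI of up to 0.955% and sets no limit on cells that express the gene.

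Klrb1b had its highest levels in dendritic cells and lymphocytes. In dendritic cells it stood at 426 CPM in NT (96 UMIs) and 225, 209 and 256 CPM in the RT libraries (52, 128 and 65 UMIs), a mean log2 ratio of -0.89 ± 0.15 (SD, n = 3). The dendritic sub-cluster led by Cd209a and Flt3 carried most of it, at 540 CPM in NT and 242, 240 and 311 CPM in RT. Each interval of the ratio lay below 0, but Klrb1b did not pass the 2-fold rule in dendritic cells, as 3.53% of the genes tested there did. The name of a macrophage gene thus fits Klrb1b only in part, since dendritic cells and lymphocytes held more of it in every library. In lymphocytes Klrb1b stood at 143 CPM in NT (138 UMIs) and was higher in every RT library, at 227, 169 and 222 CPM (178, 362 and 216 UMIs). The interval of the log2 ratio included 0 in RT2 (-0.045 to 0.54). In monocytes it was lower in every RT library, at 40.3 CPM in NT and 6.71, 12.4 and 4.43 CPM in RT. An unnamed myeloid sub-cluster led by Retnla and Aldh1a2, of 21 cells in NT, held 138 CPM in NT and 62.1, 104 and 94.4 CPM in RT. Tumor cells held 0.172 CPM in NT and at most 0.235 CPM in RT, and endothelial cells had none.

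Treml4 in monocytes had RT values on both sides of NT, with 7.55 CPM in NT (6 UMIs) and 5.30, 8.13 and 6.05 CPM in the RT libraries (15, 40 and 15 UMIs). The interval of each log2 ratio included 0, at -1.96 to 1.14 in RT1, -1.14 to 1.64 in RT2 and -1.77 to 1.33 in RT3. A difference of 2-fold in either direction was therefore not detectable at this depth. Macrophages lay above monocytes for this gene in NT and below them in each RT library. An unnamed sub-cluster led by Slc40a1 and Mmp8, of 33 cells in NT, held 83.5 CPM in NT and 10.2, 7.26 and 2.73 CPM in RT. Lymphocytes had 0 Treml4 UMIs in 1706 cells, which allows a share of cells with a UMI of up to 0.176% and likewise bounds detection only.

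Apol7c had a second site in dendritic cells. The small dendritic sub-cluster led by Ccr7 and Ccl22, of 17, 22, 33 and 29 cells from NT to RT3, held 302 CPM in NT (15 UMIs) and 327, 33.2 and 401 CPM in RT (12, 3 and 22 UMIs). The interval of the log2 ratio included 0 in RT1 (-1.11 to 1.31) and RT3 (-0.61 to 1.46), and RT2 lay below NT, on 3 UMIs. The 15 UMIs of NT came from 3 cells. The other dendritic sub-cluster had 0 Apol7c UMIs in all 4 libraries, as had all 1706 lymphocytes and all 580 neutrophils. Monocytes had 3 UMIs in NT and 0 in RT. Tumor cells had 1 UMI in NT and 3, 0 and 0 in RT.

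**Figure D4:**
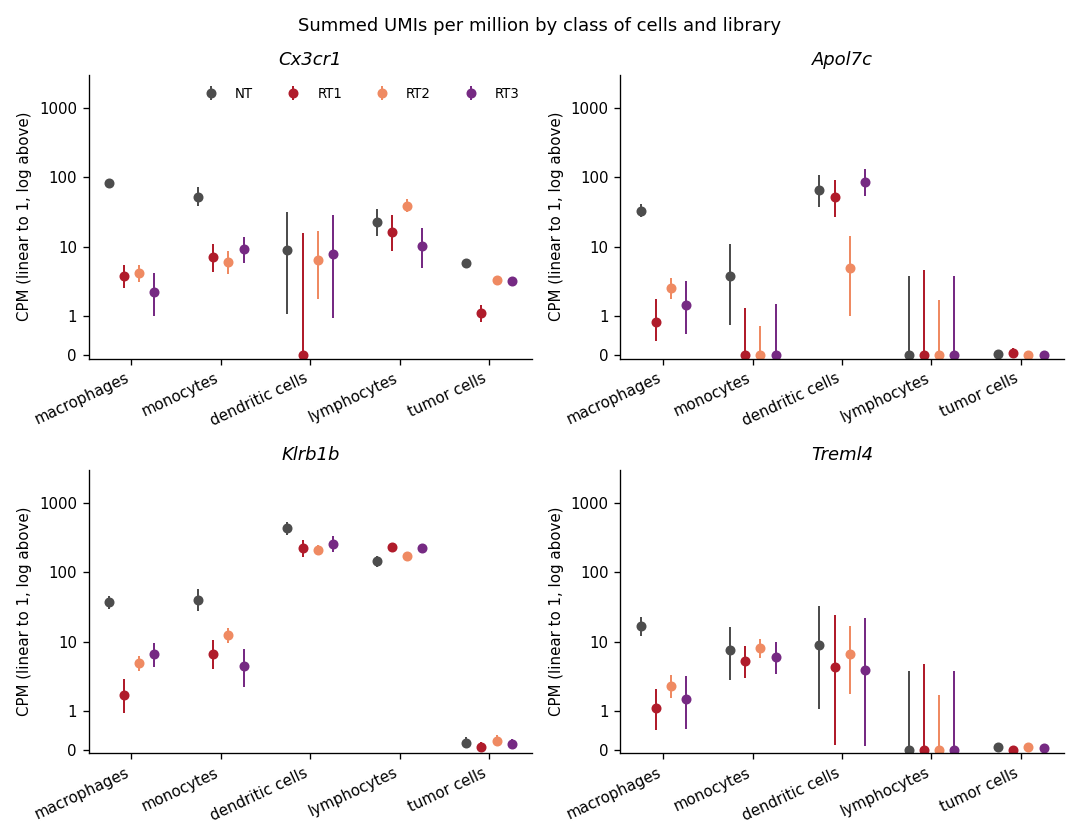
CPM of each gene by class of cells (horizontal axis) and library, with exact 95% counting intervals. The vertical axis is linear up to 1 CPM and logarithmic above. NT lies above RT for all 4 genes in macrophages, for Cx3cr1 and Klrb1b in monocytes as well, and below RT for Klrb1b in lymphocytes. It also lies above every RT library in other classes shown, among them Klrb1b in dendritic cells and Cx3cr1 in tumor cells.

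Markers of other cell types in the macrophage clusters did not move in 1 direction. The 8 dendritic cell markers summed to 32.8 CPM in NT macrophages and to 21.7, 20.7 and 34.0 CPM in the RT libraries. Fscn1 was the most abundant of them, at 15.8, 14.7, 14.2 and 23.8 CPM. Of the 8, 3 were below NT in every RT library and 2 above it. At least 2-fold lower in every RT library were 2 of the 8, Xcr1 and Clec9a, which did not reach the low-value filter. Without that filter the same share was 9.28% of all genes with a UMI in macrophages. The 11 markers of NK cells summed to 4.46 CPM in NT and 8.20, 10.6 and 7.84 CPM in RT, with Gzmb the highest in NT and RT2, Gzma in RT1 and Klra4 in RT3, and with Ncr1, Klre1, Gzma, Eomes and Txk at 0 in NT. The 9 measured lymphocyte markers summed to 6.48 CPM in NT and 5.63, 10.6 and 5.14 CPM in RT. Markers of neutrophils, a class with 11 Treml4 UMIs in all, were higher in RT macrophages, where the 7 of them summed to 25.1 CPM in NT and 91.6, 144 and 74.5 CPM in RT, with Csf3r the most abundant. The 7 fibroblast markers were higher in RT as well, at 34.0 CPM in NT and 78.8, 58.3 and 105 CPM in RT, with Col3a1 the most abundant, and fibroblasts held 51 Cx3cr1 UMIs in all. Without macrophages that held a UMI of a dendritic cell marker the mean log2 ratios were -4.67 for Cx3cr1, -4.39 for Apol7c, -3.26 for Klrb1b and -3.19 for Treml4. Without those with a lymphocyte or NK cell marker they were -4.56, -4.47, -3.27 and -3.42. Tumor RNA, read from the tumor marker Rhox5, was found in 10.2% of NT macrophages and in 13.5%, 15.3% and 14.7% of those in the RT libraries, and without these cells the ratios were -4.69, -4.80, -3.31 and -3.41. RT3 macrophages also held 223 CPM of 6 mast cell genes, picked after their values were seen, against at most 0.367 CPM in the other libraries. The part of the neutrophil, fibroblast and mast cell genes in the result was not tested.

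The 4 genes were seldom counted in the same macrophage. In NT, 135 macrophages held a UMI of 1 of them, 27 of 2 and 3 of 3, out of 708, and none of all 4. Treml4 and Cx3cr1 were found together in 12 of the 33 NT macrophages with a Treml4 UMI, 36.4% (20.4 to 54.9), and Cx3cr1 in 11.6% (9.24 to 14.2) of those without. Apol7c was found in 18.2% (6.98 to 35.5) of NT macrophages with Treml4 and in 2.37% (1.36 to 3.82) of those without. Macrophages with a Treml4 UMI were deeper, at a median of 4980 against 2752 UMIs, and the part of depth in this co-detection was not tested. Apol7c was also found in 11.3% (4.27 to 23.0) of NT macrophages with Klrb1b and in 2.44% (1.40 to 3.94) of those without, and those with Klrb1b were deeper too, at a median of 4162 against 2712 UMIs. For Klrb1b and Cx3cr1 the intervals overlapped, with Cx3cr1 found in 11.3% (4.27 to 23.0) of NT macrophages with Klrb1b and in 12.8% (10.4 to 15.6) of those without.

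Macrophages with a UMI of any 1 of the 4 genes carried more RNA of MHC class II, the molecules that present peptides to CD4 T cells, than those without it, in each of the 4 libraries, where a UMI marks detection and its source in RT was not tested. In NT the class II genes measured summed to 35165 CPM in the 53 macrophages with a Klrb1b UMI and to 15434 CPM in the 655 without. In the RT libraries the same sum was 20050, 20263 and 28893 CPM in the 14, 43 and 20 macrophages with Klrb1b and 2106, 4013 and 3841 CPM in those without. For Apol7c the sums in NT were 40431 CPM with and 16263 CPM without, and in the RT libraries they were 14000, 31606 and 32198 CPM in 6, 8 and 4 cells with a UMI, against 2206, 4267 and 4098 CPM in those without. For Treml4 the sums in NT were 24093 CPM with and 16852 CPM without a UMI, and in the RT libraries they were 15381, 17716 and 11255 CPM with (8, 25 and 5 cells) and 2182, 4210 and 4176 CPM without. For Cx3cr1 the sums in NT were 20004 CPM with and 16844 CPM without a UMI, and in the RT libraries they were 4147, 14840 and 9996 CPM with (23, 22 and 9 cells) and 2213, 4260 and 4178 CPM without. Macrophages with a UMI of these genes were also the deeper ones, at a median of 3802 against 2674 UMIs for Cx3cr1 in NT, and the part of depth was not tested. The genes of resident-type macrophages, such as Lyve1 and Folr2, summed to 930 CPM in NT macrophages with a Klrb1b UMI and 2853 CPM in those without. The sums were 1135 and 2737 CPM for Apol7c, 1890 and 2820 CPM for Cx3cr1, and 2619 and 2667 CPM for Treml4. A dendritic cell marker was found in 17.0% of NT macrophages with Klrb1b and in 7.63% of those without. The same shares were 18.2% and 8.02% for Apol7c, 18.2% and 7.85% for Treml4, and 8.89% and 8.25% for Cx3cr1, and the part of dendritic cell RNA in these differences was not tested.

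Across 50 profiles, each the summed cells of 1 myeloid sub-cluster in 1 library with at least 50 cells, Klrb1b was most like the class II genes H2-Ab1 (Pearson r = 0.91), H2-Eb1 (0.89), H2-Aa (0.88), Ciita, the class II transactivator (0.87), and H2-DMb2 (0.86), of 10203 genes compared. These profiles include the dendritic cells, where Klrb1b was highest. The likeness of the other genes was weaker. For Apol7c the highest was Cx3cr1 (0.59), then Kcnj10, 9530082P21Rik, Bank1 and Gbp2b. For Cx3cr1 it was Pdia3 (0.66), then Sirpb1a, Rbm4b, Insig1 and Snrpb2, and for Treml4 it was Atxn2l (0.70), then Slc36a3os, Clec4b1, Pilrb1 and Kcnj2. Between pairs of the 4 genes r ran from 0.12 (Apol7c and Klrb1b) to 0.59 (Cx3cr1 and Apol7c). The profiles share libraries and depth and include macrophages of NT and RT, so the fall by which the 4 genes were chosen enters these correlations, which are descriptions only.

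Relatives and partners of each gene were taken from lists. Of the fractalkine axis, the 3 genes beside Cx3cr1 passed the 2-fold rule in neither direction, with a median log2 ratio of -0.38 against -0.0032 for all genes. Adam10 and Adam17, the proteases that shed fractalkine, stood at 58.7 and 226 CPM in NT macrophages. They ranged from 57.9 to 89.4 CPM for Adam10 and from 143 to 193 CPM for Adam17 in RT. The ligand Cx3cl1 was carried by tumor cells, at 38.5 CPM in NT and 24.4, 37.1 and 25.4 CPM in the RT libraries, and by endothelial cells, at 56.4 CPM in NT and 39.5, 76.4 and 72.0 CPM in RT (10, 14, 54 and 9 UMIs in turn). Fractalkine transcripts were therefore present in the tumors of both groups.

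Of the NKR-P1 receptors and their Clr ligands, 5 of 13 genes could be tested in macrophages, and the 4 beside Klrb1b passed the rule in neither direction (median -0.19). Clec2d, which encodes the ligand of Klrb1b, stood at 23.1 CPM in NT macrophages and 11.6, 30.5 and 13.7 CPM in RT, on both sides of NT. The phosphatases Ptpn6 and Ptpn11, which act below inhibitory receptors, were at 116 and 41.3 CPM in NT, with mean log2 ratios of 0.059 and 0.12. Klrb1c, the NK1.1 antigen and a near relative of Klrb1b, had 2 UMIs in NT macrophages and was not tested.

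Of the TREM family and its adaptors, 7 genes beside Treml4 were tested, 1 was at least 2-fold lower in every RT library and none higher (median 0.59). The lower gene was Trem3, an activating receptor, at 8.91 CPM in NT (22 UMIs) and 1.47, 3.51 and 2.20 CPM in RT. Trem2, the lipid-sensing receptor of tumor macrophages, was above NT in every RT library, at 218 CPM against 349, 336 and 371 CPM. Its adaptor Tyrobp stood at 438 CPM in NT and 608, 946 and 676 CPM in RT, also above NT in each. Neither passed the 2-fold rule. The endosomal Toll-like receptors and their pathway, to which Treml4 has been tied, had 10 genes tested and none past the rule (median 0.36), with Tlr7 at 25.1 CPM in NT and 44.1, 32.0 and 39.4 CPM in RT.

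Of the apolipoprotein L family 2 of 13 genes passed the low-value filter in macrophages. The other one was Apol9b, at 0.810 CPM in NT (2 UMIs) and 2.20, 3.67 and 2.69 CPM in RT (18, 46 and 11 UMIs). Apol9b passed the filter only through RT and Apol7c only through NT, so the filter set their directions. Genes of this family are close copies of each other, and how reads shared by them were counted is not given in the sources used here.

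Lists of macrophage states placed the fall of the 4 genes beside other changes. All 7 tested MHC class II genes were at least 2-fold lower in every RT library (median log2 ratio -2.22), among them H2-Aa at 7055 CPM in NT and 935, 1621 and 1790 CPM in the RT libraries. Of 9 tested genes of Ly6C-low (patrolling) monocytes, the cells best known for Cx3cr1, 4 were lower, namely Itgax, Itgal, Spn and Adgre4, and 1, Ear2, was higher (median -1.13). Adgre4, at 6.48 CPM in NT and a mean of 1.18 CPM in RT, passed the low-value filter only through NT, and Ear2, at 0.810 and 4.96 CPM, only through RT, so these had to differ. Itgax, the integrin CD11c, stood at 128 CPM in NT and 31.6, 22.3 and 39.4 CPM in RT. Nr4a1, the factor that Ly6C-low monocytes depend on, did not pass the rule, at 2180 CPM in NT and between 1303 and 2166 CPM in RT. Of 6 tested genes of cross-presenting dendritic cells, Batf3 and Cadm1 were lower (median -0.17), and Xcr1 and Clec9a, which define those cells, had 6 and 8 UMIs in NT macrophages and did not reach the filter.

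None of the 4 tested microglia genes that often accompany Cx3cr1 passed the rule (median -0.14). P2ry12 stood at 29.6 CPM in NT and 61.7, 35.0 and 46.5 CPM in RT, above NT in each, the reverse of Cx3cr1. Of the 7 tested genes of resident-type macrophages 3 were at least 2-fold higher, Lyve1, Cbr2 and Pf4, and all 7 were above NT in every RT library (median 1.48). Lyve1 stood at 60.8 CPM in NT and 446, 158 and 271 CPM in RT. Of the 10 core macrophage genes, Mertk and C1qb were higher and none lower (median 0.28). None of the 14 tested genes of the interferon gamma response passed the rule (median -0.33), and of the NK cell markers only Gzmb reached the filter. These lists hold genes of macrophages in part, they were compiled with earlier results of these data known, and their counts are set beside the 2.83% lower and 3.89% higher of all genes.

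**Figure D5:**
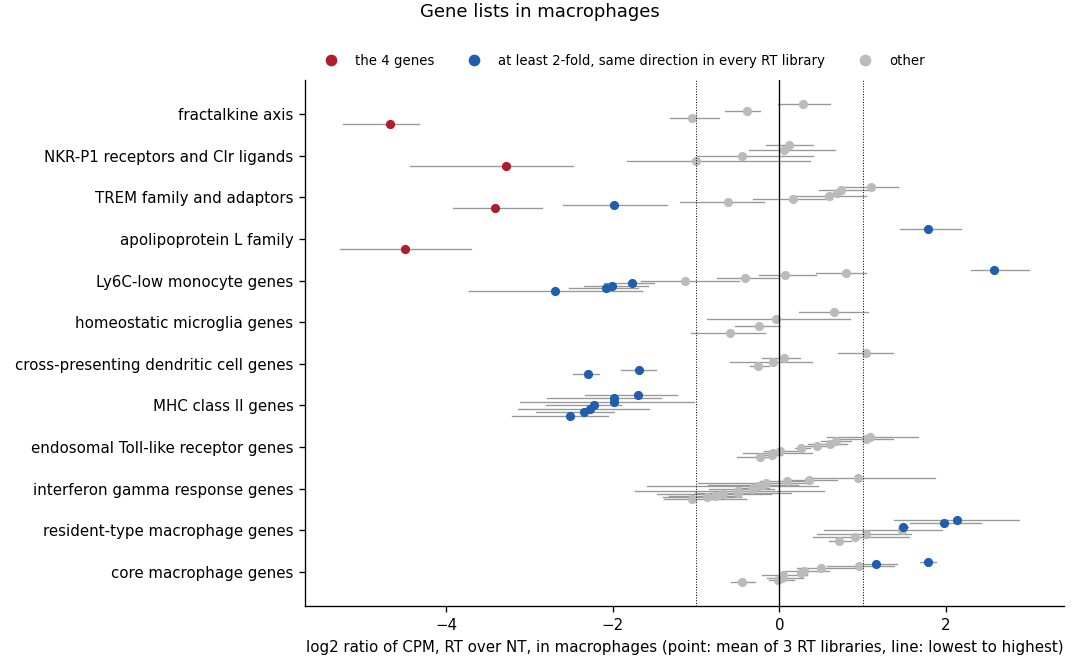
Log2 ratio of RT over NT in macrophages (horizontal axis) for each tested gene of the lists (rows). Points are means of the 3 RT libraries, lines run from the lowest to the highest library, and dotted lines mark 2-fold. The 4 genes lie left of -3, and all 7 MHC class II genes lie left of -1.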

How the data were processed

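The authors deposited UMI counts, whole numbers without normalization, as 1 table per library made with the SeekOne MM 3′ kit. The submitters' processing notes name STAR 2.5.1b, featureCounts of Subread 1.6.4, Cell Ranger and the build GRCm39. The library RT2 appears to have been filtered before it was deposited. No columns of other samples were present (0). Libraries were joined on symbols. Klrb1b, Apol7c and their relatives are near copies and depend on the authors' counting of shared reads.

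The 55058 barcodes that had 200 or more genes and no more than 20% of UMIs from mitochondria were analysed. Counts were scaled to 10000, reduced over 2000 variable genes to 30 components, integrated by a rewritten Harmony (theta 2, lambda 1, sigma 0.1, seed 1) and clustered (20 neighbors, Leiden at resolution 0.8). Clusters were named from 8 marker lists, and myeloid cells were clustered again into 15 sub-clusters. The 4 genes and most compared lists took no part in building the clusters. The minimum marker score of 1 and the 10% detection needed of leading genes were chosen after seeing clusterings. Doublets were kept.

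UMIs were summed per library and class and given as CPM. A library at 0 UMIs was read at 3 counts. Genes with a mean of at least 2 CPM were called lower or higher where every RT library differed from NT by 1 or more on the log2 scale. Cells from 1 tumor are not replicates, so no p-value was computed. Genes named are the 4, members of lists, the 20 largest falls, and the 5 genes most like each in pattern. The 4 genes and the lists were chosen with earlier results of these data known. The ratios, the calling of genes and the intervals were tested on simulated counts without added variation between tumors or cells. Filtering of cells, integration, clustering, naming and thinning were not tested in this way. Python 3.11.15, numpy 2.4.6, scipy 1.17.1, igraph 0.11.9 and leidenalg 0.10.2 were used. A list of 6 mast cell genes was added after seeing the data.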

Additional observations from a re-analysis of the deposited data

Results flagged for a closer look

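Klrb1b went opposite ways in 2 classes of cells. In lymphocytes its mean log2 ratio of RT over NT was 0.51, above NT in 3 of 3 RT libraries, whereas in macrophages it was -3.28, below NT in 3 of 3. The difference between the classes was not tested, since NT was 1 library. The lymphocyte cluster was led by granzyme genes, and the interval of the ratio in RT2 included 0. A Klrb1b UMI was found in 51 of 391 lymphocytes in NT (interval 9.87% to 16.8%) and in 22.4%, 21.3% and 24.9% of them in the RT libraries, and at 1000 UMIs per cell it was expected at 11.7% in NT and 17.5%, 13.6% and 14.8% in RT.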

How the results depend on the processing

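No paired analysis was possible because NT was 1 library. Each of the 4 mean log2 ratios stayed below 0 in all 17 alternatives. The 4 genes were chosen by this fall and the alternatives reuse the same libraries, so the sign is no independent support. Over the 14 that kept all libraries they ran from -4.83 to -3.91 for Cx3cr1, -4.92 to -3.59 for Apol7c, -3.59 to -2.43 for Klrb1b and -3.54 to -2.19 for Treml4. Leaving out 1 RT library at a time gave -4.85 to -4.39, -4.89 to -4.10, -3.67 to -2.70 and -3.71 to -3.17 in the same order. With all myeloid clusters pooled, Cx3cr1 was at -3.91, Apol7c at -3.59 and Treml4 at -2.19, a move larger than the SD between RT libraries and one that comes with the added cell classes. Levels averaged over 5 sub-clusters in the NT mix were -4.72 for Cx3cr1, -4.71 for Apol7c, -2.52 for Klrb1b and -3.14 for Treml4, and 1 sub-cluster with 18 NT cells was left out there. The number of genes at least 2-fold lower in every RT library was 289, of 10203 tested. It was 1474 of 15888 when every gene with a UMI was tested and 134 of 7008 at a mean of at least 10 CPM, where Apol7c and Treml4 were not tested. It was 359 to 406 when an RT library was left out, since fewer libraries had to pass, and 185 without the mitotic sub-cluster, of which 157 were among the 289. The setting without the mitotic sub-cluster and those without marker-bearing cells were added after seeing the data. Median-of-ratios scaling moved the median of all genes from -0.0032 to 0.011. Depth limits Treml4 and Apol7c most, with 6 and 6 UMIs in RT3 macrophages.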
